A study of Mus musculus with 9 samples.

Results

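The genes described here are the heat shock proteins and their DNAJ co-chaperones in the mouse retina. They were taken from the count table by symbol: the small heat shock proteins, HSP70, HSP110, HSP90, HSP60 and HSP10, the DNAJA, DNAJB and DNAJC families, and with them Cryab, Hsf1, Hsf2 and Bag3. Hspa5, Hspbp1, Hspbap1 and 11 pseudogene symbols were not taken. Of 48587 names in the table, 75 matched, and the 66 with 10 or more counts in at least 3 of the 9 libraries were kept. The kept gene nearest to this limit was Hspb2, which reached 10 counts in 5 libraries and held 31, 54 and 37 counts in the RVO libraries. The nearest gene left out was Hspb3, which reached 10 counts in 2 libraries and held 6, 12 and 11 counts in the control libraries. The other genes left out were Hspb7, Hspb9, Dnajb7, Dnajb8, Dnajb13, Dnajc5b, Dnajc5g and Dnajc22.

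Molecular chaperones bind unfolded proteins and help them to fold, to be carried across membranes or to be degraded. HSP70 works in cycles of ATP hydrolysis, which DNAJ co-chaperones start and nucleotide exchange factors such as BAG3 and the HSP110 proteins end, and HSP90 receives part of the folded clients from it. When unfolded proteins accumulate in the cytosol, the transcription factor HSF1 binds heat shock elements in the promoters of inducible members, while misfolding in the endoplasmic reticulum acts through separate sensors on other members.

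Vein occlusion (RVO) was induced by laser in C57BL/6J mice of 12 weeks given eosin Y as photosensitizer. In each mouse all large veins of one eye were treated, and the fellow eye received laser spots between the vessels as control. Retinas of RVO and control eyes were taken at d2, and another group came from untreated mice without laser treatment. Each group had 3 samples, each a pool of 6 retinas, so all p-values below measure the spread between pools. RVO and control eyes thus shared the photosensitizer, a laser injury and the fellow-eye arrangement, all of which the untreated eyes lacked, and laser injury and vein occlusion cannot be told apart in a comparison of RVO with untreated eyes.

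The libraries held between 21022997 and 28993921 counts in RVO, between 18897218 and 23419497 in control and between 12377572 and 15245869 in untreated eyes. Levels are given as CPM (counts scaled to library size) normalized by TMM factors over the 9 samples. Retina markers were high in all libraries, but the summed level of 9 rod genes was between 47418 and 51542 CPM in RVO, between 57522 and 70511 in control and between 85714 and 87854 in untreated eyes. The sum of 6 reactive glia genes ran the other way, from 202–219 CPM in untreated to 1275–1624 in control and 2740–2882 in RVO eyes, and 8 monocyte and macrophage genes from 16.7–21.5 to 54.6–74.6 and 123–149 CPM. In pooled tissue, fewer cells of a type and less RNA per cell cannot be told apart, and the part of these shifts in the values below was not tested. For many members RVO replicate 2 was the RVO sample nearest to control.

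Between RVO and untreated eyes, 14 of 66 members were called higher and 15 lower. Hspb1 and Hspb2 passed the filter on low counts only through the RVO libraries, so they had to differ, whereas the other 12 would have passed it by the untreated libraries alone. The largest rises among the 12 were those of the small heat shock proteins Cryab and Hspb8, of Bag3, Hspa1b and Dnajb1, and the largest falls those of Hspa12a, Dnajc28, Dnajb14, Dnajc19 and Dnajc6. Among all 16380 genes tested, 27.4% rose and 24.6% fell at the same threshold (adjusted p below 0.01 by Benjamini-Hochberg in edgeR's quasi-likelihood test), so the members' 21.2% and 22.7% were near or below the background. Scaled by library size alone, the split was 26 up and 9 down (all genes 36.4% and 16.7%), since this scaling moved the median of all genes by 0.21. Without RVO replicate 2, 22 members were called higher and 18 lower (all genes 33.3% and 31.0%).

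Between control and untreated eyes, 9 of 65 members rose and 27 fell, Hspb2 being too low to be tested. This was 13.8% and 41.5% of the members, against a background of 27.2% higher and 25.2% lower genes. Under scaling by library size, which moved the median by 0.17, the split was 19 up and 19 down (all genes 36.7% and 15.5%), and after removal of GC content and length trends, a setting added once the data were seen, it was 8 up and 17 down (all genes 18.0% and 19.6%). The count of falling members thus depended on the scaling. Both comparisons used the same 3 untreated samples, so they are not independent of each other.

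Between RVO and control eyes, which asks about the occlusion beyond the laser injury, Bag3 was the only member to pass the threshold of 0.01, and none was lower (1.52% and 0.0%, background 2.7% and 0.634%). At an adjusted p under 0.05, 22 members were higher and 7 lower, or 33.3% and 10.6%, against a background of 17.5% and 17.1%. The 3 RVO samples lay above all 3 control samples for 26 members and below them for 14, or 39.4% and 21.2%, against a background of 27.3% and 25.4% of all genes tested. Without RVO replicate 2 the calls at 0.01 were 21 up and 11 down (all genes 17.1% and 19.3%). Without RVO replicate 3 or any 1 of the control replicates no member was up, in fits that called at most 0.0058% of all genes higher. The DESeq2 Wald test called 16 up and 4 down (all genes 11.0% and 12.7%).

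**Figure D1:**
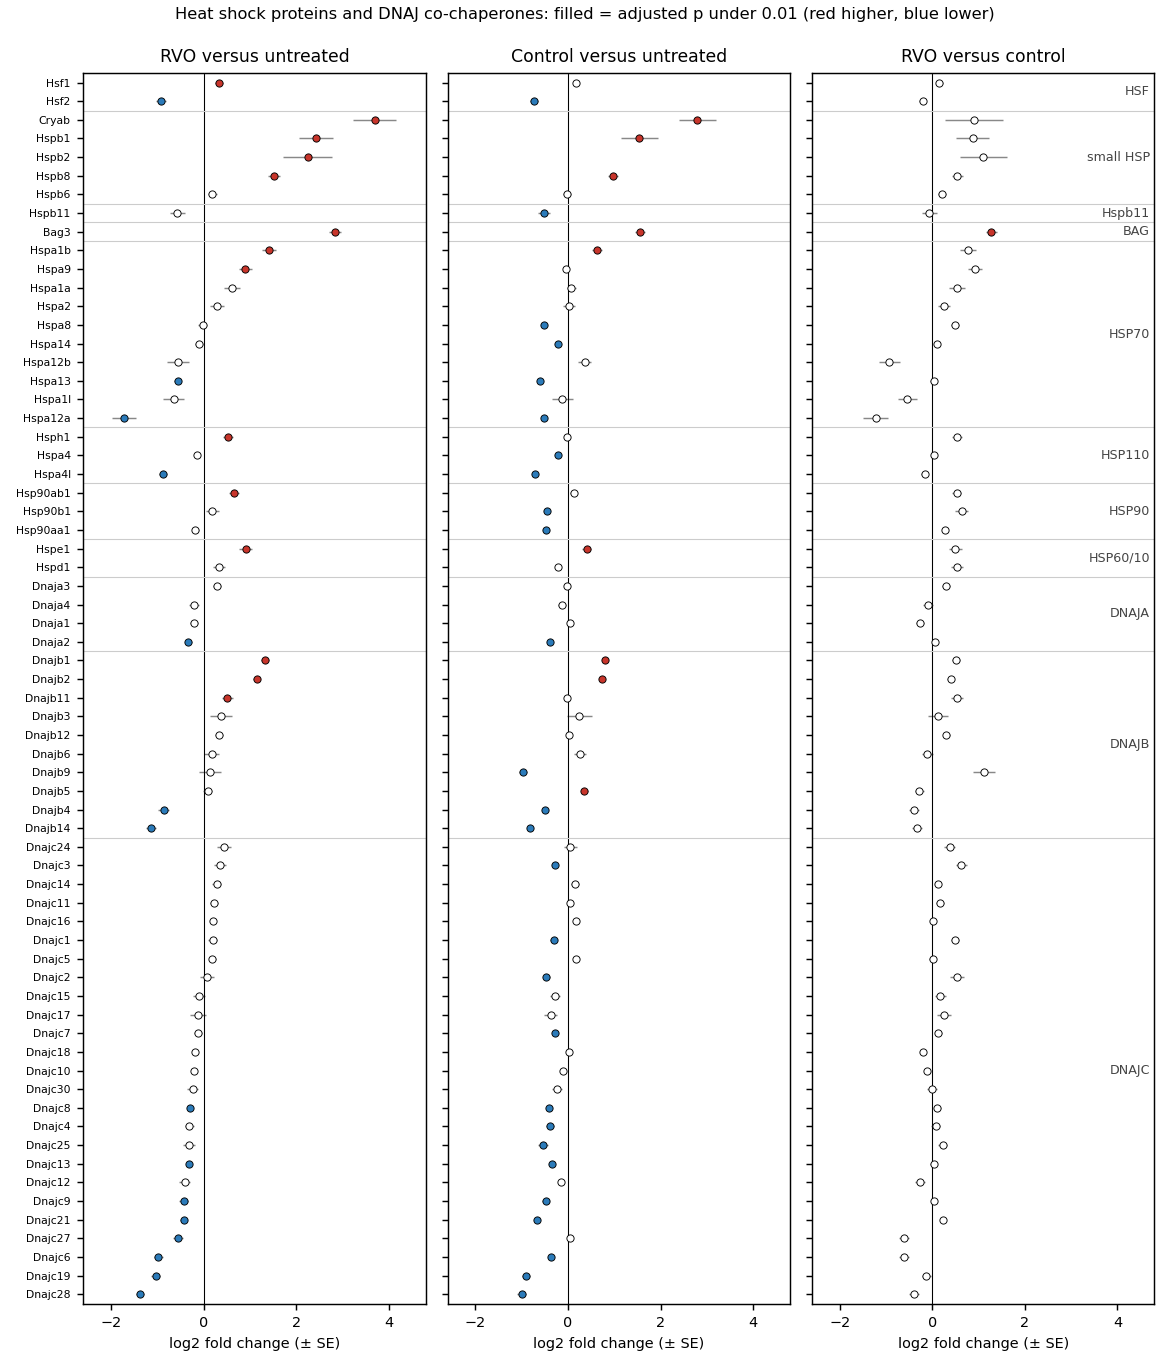
Log2 fold change with its SE (x axis) of the 66 members (rows, grouped by family) in the 3 comparisons, filled red or blue where the adjusted p was under 0.01. Cryab, Hspb1, Hspb2, Hspb8 and Bag3 stand farthest to the right against untreated eyes, most DNAJC genes lie left of 0 or near it, and Bag3 is the only filled point between RVO and control eyes.

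The heat shock factors moved apart. Hsf1, the main transcriptional activator of the heat shock response, held 57.2, 48.9 and 55.4 CPM in RVO, 50.4, 45.8 and 48.9 in control and 40.9, 43.7 and 42.7 in untreated eyes. Hsf2, a related factor with roles in development, held 26.2, 27.3 and 24.8 CPM in RVO, 28.1, 30.7 and 31.4 in control and 55.5, 48.6 and 43.6 in untreated eyes. Both laser-treated groups lay above the untreated samples for Hsf1 and below them for Hsf2, without overlap. Hsf1 rose in RVO by 0.33 ± 0.09 on the log2 scale (SE, adjusted p = 0.00956, edgeR), close to the threshold. The Hsf1 call was lost, with an adjusted p of up to 0.0431, when RVO replicate 1, RVO replicate 3 or any untreated replicate was left out. Against untreated eyes its value in control eyes was 0.17 ± 0.06 (adjusted p = 0.0332). Hsf2 fell by 0.93 in RVO and by 0.73 in control eyes (adjusted p = 0.000145 and 1.44e-05). After removal of GC content and length trends neither factor was called, with Hsf2 at 0.03 and Hsf1 at 0.02 in RVO eyes.

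The small heat shock proteins, which hold unfolded proteins without using ATP, included Cryab, with the largest rise of all members against untreated eyes. Of the 5 genes, 4 were called higher in RVO and 3 of the 4 tested in control eyes (background 27.4% and 27.2%), but these counts support nothing, since Hspb1 in both comparisons and Hspb2 in the first passed the filter only through the group where they were high. With GC content and length trends removed, 3 were higher in RVO (all genes 23.7%) and 2 higher and 1 lower in control eyes (all genes 18.0% and 19.6%). The median log2 difference went from 2.25 to 1.54 and from 1.26 to 0.75. Cryab, the alpha B crystallin of lens and glia, held 290, 1014 and 352 CPM in RVO, 561, 173 and 153 in control and 46.1, 41.1 and 38.9 in untreated eyes. All laser-treated samples lay above all untreated ones, but RVO replicate 2 and control replicate 1 stood far above the others of their groups. Against untreated eyes, Cryab rose 13.0-fold in RVO (log2 3.70 ± 0.46, adjusted p = 0.00024) and 6.93-fold in control eyes (log2 2.79 ± 0.40, adjusted p = 5.27e-05).

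These are the samples with most lens transcripts. The sum of 15 lens genes, Cryab not included, was 223, 7098 and 607 CPM in RVO, 3614, 450 and 260 in control and 23.4, 33.7 and 6.45 in untreated eyes, where 2 of the 15 genes were at 0 in all libraries. Cryaa, the alpha A crystallin, was among them with 2643 CPM in RVO replicate 2. Without RVO replicate 2, Cryab was still called against untreated eyes (log2 2.94, adjusted p = 1.41e-11), and so it was in control eyes without control replicate 1 (log2 1.94, adjusted p = 1.76e-10). Between RVO and control eyes the groups overlapped (log2 0.90 ± 0.63, adjusted p = 0.294). Without both lens-rich libraries, a choice made after the data were seen, the difference was 0.96 with an adjusted p of 0.000294. The part of lens RNA in the Cryab level was not tested.

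**Figure D2:**
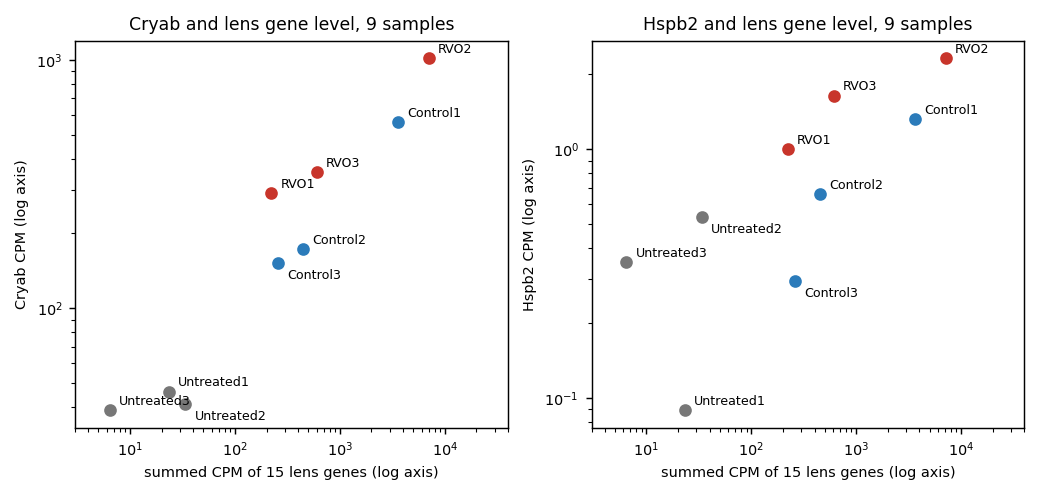
CPM of Cryab (left) and Hspb2 (right) against the summed CPM of 15 lens genes in each of the 9 samples, both axes logarithmic, red for RVO, blue for control and grey for untreated. RVO2 and Control1 have the highest lens sums, 7098 and 3614 CPM, and the highest Cryab levels, 1014 and 561 CPM.

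Hspb1, the HSP27 of many stressed cells, was low in the retina, with 2.74, 5.15 and 4.57 CPM in RVO, 2.83, 2.74 and 1.23 in control and 0.984, 0.459 and 0.841 in untreated eyes. Hspb1 was 5.39-fold above untreated eyes in RVO (log2 2.43 ± 0.36, adjusted p = 0.000572) and 2.92-fold in control eyes (log2 1.55 ± 0.39, adjusted p = 0.00383), both as a description given the filter, and RVO and control eyes overlapped. In control eyes the Hspb1 call was lost without control replicate 1, control replicate 2, untreated replicate 2 or untreated replicate 3, with an adjusted p of up to 0.0288, and without GC content and length trends (log2 0.78, adjusted p = 0.147).

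Hspb2, a small heat shock protein known from muscle, held 1.00, 2.32 and 1.64 CPM in RVO, 1.32, 0.66 and 0.296 in control and 0.0895, 0.535 and 0.351 in untreated eyes. The log2 difference between RVO and untreated eyes was 2.25 ± 0.53 (adjusted p = 0.00563). This supports no rise, because Hspb2 passed the filter only through its RVO libraries, and the call was lost without RVO replicate 3 or any untreated replicate (adjusted p up to 0.0268) and without GC content and length trends (0.0383). Hspb2 (chr9:50751078-50752354, minus strand, GRCm38) overlaps exons of Cryab (chr9:50751325-50756636, plus strand). Its counts were between 0.194% and 1.30% of those of Cryab in the 9 samples, and since the strand setting of the counting was not stated, reads of the 2 genes cannot be told apart. The sum of 10 skeletal muscle genes was between 8.84 and 19.8 CPM in all 9 samples.

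Hspb8, which forms a complex with BAG3 that sends misfolded proteins to autophagy, held 22.4, 26.9 and 21.0 CPM in RVO, 16.1, 17.6 and 14.8 in control and 7.87, 8.41 and 8.06 in untreated eyes. The 3 groups did not overlap. Hspb8 rose by 1.52 ± 0.13 in RVO and by 0.97 ± 0.11 in control eyes on the log2 scale (adjusted p = 3.93e-05 and 6.84e-06), and RVO and control eyes differed by 0.53 ± 0.12 (adjusted p = 0.0164). Hspb6, the HSP20 of muscle and other tissues, lay between 143 and 191 CPM in all samples and was not called. Without GC content and length trends Hspb6 was called lower in control eyes. Hspb11 bears the family name but is a subunit of intraflagellar transport. It fell in control eyes (log2 -0.51, adjusted p = 0.00404), a call lost without control replicate 1, untreated replicate 1 or untreated replicate 2 (adjusted p up to 0.024) or without GC content and length trends (0.0598), and was at -0.57 in RVO eyes (adjusted p = 0.0117).

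Bag3, the exchange factor that links HSP70 and HSPB8 to autophagy, held 57.9, 47.3 and 57.8 CPM in RVO, 20.3, 24.1 and 22.9 in control and 7.96, 8.03 and 6.66 in untreated eyes. The 3 groups were well apart and the replicates close together. Bag3 rose 7.16-fold in RVO (log2 2.84 ± 0.13, adjusted p = 3.19e-06) and 2.94-fold in control eyes (log2 1.56 ± 0.11, adjusted p = 3.09e-07). RVO exceeded control 2.42-fold (log2 1.28 ± 0.11, adjusted p = 0.00459). The fold between RVO and control eyes stayed alike when replicates were left out. Without RVO replicate 3 or any control replicate the adjusted p rose up to 0.0364, in fits that called at most 0.0058% of all genes higher. Without both lens-rich libraries it was 1.28 on the log2 scale (adjusted p = 2.85e-05).

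Among the 10 HSP70 genes, 2 rose and 2 fell in RVO eyes and 1 rose and 4 fell in control eyes, both against untreated eyes (background 27.4% up and 24.6% down, and 27.2% up and 25.2% down). The stress-inducible cytosolic HSP70 is made from Hspa1a and Hspa1b, which lie side by side on chromosome 17 (chr17:34969190-34972156 and chr17:34956436-34959238, both on the minus strand, GRCm38). Hspa1b held 31.2, 24.2 and 35.8 CPM in RVO, 20.3, 15.5 and 17.4 in control and 10.7, 11.6 and 11.6 in untreated eyes. Hspa1a held 27.9, 21.3 and 34.8 CPM in RVO, 21.4, 18.3 and 18.5 in control and 20.04, 18.1 and 16.5 in untreated eyes. The 3 groups were apart for Hspb8, Bag3 and Hspa1b, whereas for Hspa1a control and untreated eyes overlapped. Hspa1b rose 2.66-fold in RVO (log2 1.41 ± 0.16, adjusted p = 0.000131) and 1.54-fold in control eyes (log2 0.63 ± 0.11, adjusted p = 0.000309), while Hspa1a was at 0.61 ± 0.18 (adjusted p = 0.0162) and 0.07 ± 0.10 (adjusted p = 0.529). Without GC content and length trends the control call of Hspa1b was lost (log2 0.06, adjusted p = 0.659). Hspa1a was then at -0.013 in RVO eyes and was called lower in control eyes.

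The 2 genes are near-copies: of all stretches of 50 bases, a length set for this check, 58.8% of those in Hspa1a transcripts also occur in Hspa1b and 62.3% of those in Hspa1b occur in Hspa1a. Values for either gene are therefore uncertain. Their summed level was 59.1, 45.5 and 70.6 CPM in RVO, 41.7, 33.8 and 35.9 in control and 30.8, 29.7 and 28.2 in untreated eyes, so the sums of the 3 groups did not overlap. Their promoters are near-copies too, with 3 of 250 bases before the start site differing (98.8% identical). The stretch around the heat shock element is shown because it is the same in both, with capitals marking 2 inverted GAA units (GAANNTTC or TTCNNGAA), the core of the element, 104 bases before the start site (RefSeq, GRCm38.p6, chr17:34972213-34972300 and chr17:34959295-34959382, minus strand).
Hspa1a: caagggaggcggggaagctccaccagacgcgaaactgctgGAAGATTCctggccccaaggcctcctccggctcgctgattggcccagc
Hspa1b: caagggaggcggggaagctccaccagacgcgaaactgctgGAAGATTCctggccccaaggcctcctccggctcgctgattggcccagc

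Hspa8, the constitutive cytosolic HSP70, held 290, 239 and 298 CPM in RVO, 196, 199 and 191 in control and 285, 287 and 260 in untreated eyes. It fell by 0.52 on the log2 scale in control eyes (adjusted p = 5.32e-06), whereas RVO and untreated eyes overlapped (-0.02 ± 0.10, adjusted p = 0.877). All RVO samples lay above all control samples (0.49 ± 0.09, adjusted p = 0.0127). Hspa9, the mitochondrial HSP70 that pulls proteins through the inner membrane, held 548, 353 and 452 CPM in RVO, 241, 243 and 226 in control and 246, 235 and 237 in untreated eyes. It rose 1.87-fold in RVO (log2 0.90 ± 0.14, adjusted p = 0.000816) and was at -0.04 ± 0.05 in control eyes (adjusted p = 0.589). The 3 RVO samples were above all others, with RVO replicate 2 the lowest of them. Without it the difference from control eyes went from 0.93 ± 0.15 (adjusted p = 0.0101) to 1.06 (adjusted p = 1.69e-05).

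Hspa12a, a divergent member of the family with high expression in brain, showed the largest fall of all members in RVO eyes. It held 57.4, 127 and 67.8 CPM in RVO, 206, 182 and 199 in control and 273, 284 and 268 in untreated eyes, 3 groups without overlap in which RVO replicate 2 was again nearest to control. It fell 3.30-fold in RVO (log2 -1.72 ± 0.26, adjusted p = 0.000629) and 1.42-fold in control eyes (log2 -0.51 ± 0.06, adjusted p = 7.33e-06), and the difference between RVO and control eyes was -1.22 ± 0.27 (adjusted p = 0.016). Without RVO replicate 2 this difference was -1.67 (adjusted p = 3.28e-06), and in a fit of all 9 samples the control call was lost (adjusted p = 0.075). The summed level of 7 retinal ganglion cell genes was 249, 611 and 333 CPM in RVO, 933–991 in control and 1113–1179 in untreated eyes, and its part in the fall was not tested. Hspa12b, known from endothelial cells, held 2.26, 4.12 and 3.42 CPM in RVO and 5.69–6.67 in control eyes, a difference of -0.93 ± 0.23 (adjusted p = 0.0202, and 0.00124 without RVO replicate 2). Hspa13 of the endoplasmic reticulum fell in both groups (log2 -0.56 and -0.60), values that became 0.04 and -0.11 without GC content and length trends. Hspa14, part of a ribosome-bound chaperone complex, fell in control eyes (log2 -0.22, adjusted p = 0.00253), a call lost without control replicate 1 (0.0123) and without GC content and length trends (0.0242). Hspa2 and Hspa1l, both known from testis, were between 1.15 and 10.01 CPM in all samples and not called.

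In the HSP110 family, exchange factors for HSP70, Hsph1 held 176, 133 and 173 CPM in RVO, 116, 110 and 106 in control and 115, 113 and 105 in untreated eyes. The RVO samples were above all others, and control and untreated eyes overlapped. Hsph1 rose in RVO by 0.53 ± 0.11 (adjusted p = 0.00364), a call lost without RVO replicate 3 or any untreated replicate (adjusted p up to 0.0211). Hspa4l fell in RVO and control eyes (log2 -0.87 and -0.72, adjusted p = 6.55e-05 and 4.28e-07), but both calls were lost without GC content and length trends, where the values were -0.0027 and -0.11 (adjusted p = 0.967 and 0.0436). Hspa4 fell in control eyes (log2 -0.21, adjusted p = 0.00379), a call lost without control replicate 1, control replicate 3 or untreated replicate 2 (adjusted p up to 0.0174) and without GC content and length trends (0.544).

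In untreated eyes the HSP90 genes were the most abundant members per transcript length, with 240 CPM per kb of exon for Hsp90ab1, 181 for Hsp90b1 and 91.2 for Hsp90aa1. In RVO and control eyes Cryab, at 373 and 200 CPM per kb, was second to Hsp90ab1 at 380 and 264. This rank rests on the lens-rich RVO replicate 2 and control replicate 1. They held 1014 and 561 CPM of Cryab, against 153 to 352 in the other laser-treated samples. Hsp90aa1, at 81.0 and 66.6, was below Hspa9 (105) in RVO and below Dnajc5 (73.4) and Hspb6 (68.9) in control eyes. Hsp90ab1, the constitutive cytosolic form, held 1238, 992 and 1193 CPM in RVO, 796, 830 and 753 in control and 781, 716 and 662 in untreated eyes. It rose in RVO eyes (log2 0.66 ± 0.10, adjusted p = 0.00079) and was at 0.12 ± 0.07 in control eyes (adjusted p = 0.142). Hsp90aa1, the more inducible cytosolic form, held 335, 303 and 318 CPM in RVO, 269, 260 and 257 in control and 380, 359 and 336 in untreated eyes. All control samples lay below the others and no RVO sample reached an untreated one. Hsp90aa1 fell in control eyes (log2 -0.47 ± 0.06, adjusted p = 1.49e-05) and was at -0.18 ± 0.07 in RVO eyes (adjusted p = 0.0595). The RVO samples of all 3 HSP90 genes were above the control samples, with adjusted p between 0.0128 and 0.0178.

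The mitochondrial chaperonin HSP60 and its lid HSP10 are made from Hspd1 and Hspe1, whose exons overlap head to head on chromosome 1 (chr1:55077835-55088243, minus strand, and chr1:55088132-55091307, plus strand). Hspe1 held 16.4, 17.0 and 22.3 CPM in RVO, 12.5, 14.1 and 12.9 in control and 9.48, 9.87 and 10.1 in untreated eyes, and the 3 groups did not overlap. Hspd1 held 101, 76.9 and 107 CPM in RVO, 65.6, 71.0 and 60.6 in control and 78.9, 73.4 and 73.1 in untreated eyes. Hspe1 rose in RVO (log2 0.91 ± 0.15, adjusted p = 0.00089) and in control eyes (log2 0.40 ± 0.10, adjusted p = 0.00401), the latter call being lost without control replicate 2, untreated replicate 1 or untreated replicate 2 (adjusted p up to 0.0173) or by DESeq2 (0.0182). Hspd1 was at 0.33 ± 0.12 in RVO (adjusted p = 0.0449) and at -0.21 ± 0.07 in control eyes (adjusted p = 0.0163).

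**Figure D3:**
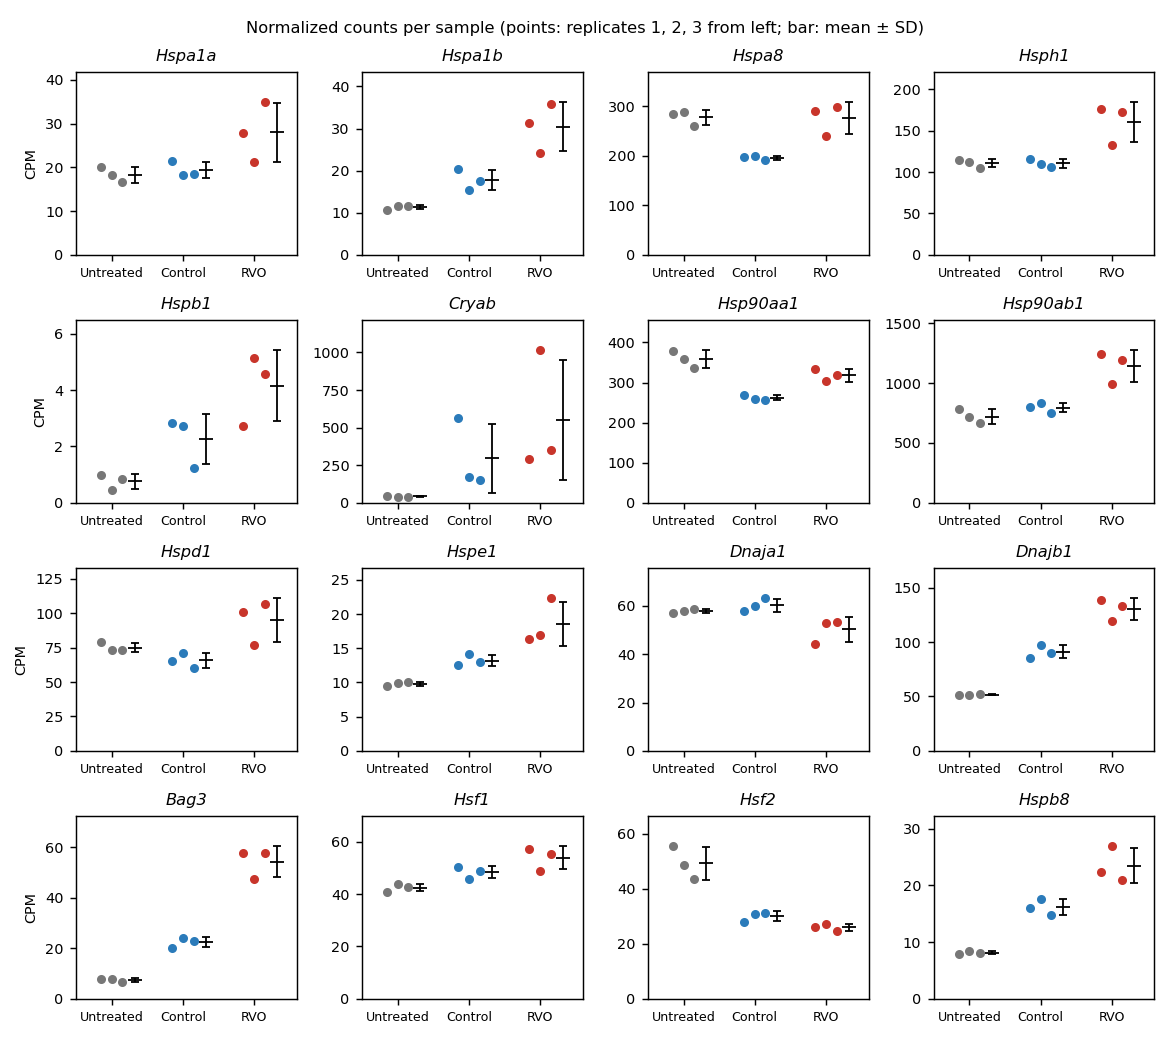
CPM (y axis from 0) of the 13 cytosolic and mitochondrial chaperones listed as a heat-inducible core, of Hsf1, Hsf2 and Hspb8 in untreated, control and RVO samples. The list includes the constitutive Hspa8 and Hsp90ab1. Points show replicates 1, 2 and 3 from left to right and bars mean ± SD. The 3 groups are apart in rising order for Bag3, Hspb8, Hspa1b, Dnajb1 and Hspe1, while for Hspa8 and Hsp90aa1 the control samples are the lowest.

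The RefSeq windows of Hspd1 and Hspe1 overlap on opposite strands, and a stretch of 30 bases of both is shown because it held the longest run of heat shock units among the members. It lies in an annotated exon of Hspd1, upstream of another of its start sites. Capitals mark 4 alternating units in a row, GAA inverted to TTC and back, that start 89 bases before the start site of Hspe1 (RefSeq, GRCm38.p6, chr1:55088053-55088082, plus strand). The windows of Hspb1 (chr5:135887762-135887869, plus strand), with 2 elements 117 and 97 bases before the start, and of Hsph1 (chr5:149636351-149636380, minus strand, 26 of its 30 bases in an annotated exon) are shown as other members called higher, and that of Dnajb4 (chr3:152193846-152193899, minus strand) as a member that fell.
Hspe1: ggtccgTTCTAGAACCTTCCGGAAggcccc
Hspb1: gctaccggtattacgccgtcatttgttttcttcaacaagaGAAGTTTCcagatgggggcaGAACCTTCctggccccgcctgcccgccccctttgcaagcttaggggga
Hsph1: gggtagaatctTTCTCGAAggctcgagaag
Dnajb4: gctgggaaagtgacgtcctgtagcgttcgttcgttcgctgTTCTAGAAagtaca

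RefSeq windows of 250 bases before and 50 after the start site were at hand for 52 of the 66 members. At least 2 inverted units, GAANNTTC or TTCNNGAA (each its own reverse complement, so both strands are covered), occurred in 15 of the 52 (28.8%) and in 17.0% of 27025 genes. A run of 3 alternating units occurred in 4 members (Dnajb6, Hspd1, Hspe1 and Hsph1, 7.69%) and in 0.662% of all genes. Hspd1 and Hspe1 share the same stretch. The run of Hsph1 lies after its start site, 15 or 36 bases downstream depending on the start site, and is not in the stretch shown. Every run of 3 also holds the shorter motif. Of the members with a window, 6 of 9 that rose in RVO eyes held the shorter motif, 2 of 14 that fell and 7 of 29 that were not called. In control eyes these were 5 of 8, 1 of 23 and 9 of 21. Both counts of risers include Hspb1, which passed the filter on low counts only through the group where it was high. Bag3 and Hspb8, risers in both groups, held the shorter motif only after their start site, 42 and 2 bases downstream. The share with the motif among all rising, falling and uncalled genes was not taken. These matches describe the letters only. Cryab, Dnajc2, Dnajc5, Dnajc11, Dnajc12, Dnajc18, Dnajc30, Hsf1, Hsp90aa1, Hsp90ab1, Hspa8, Hspa9, Hspa13 and Hspb2 were without a window.

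DNAJ proteins deliver clients to HSP70 and start its ATP hydrolysis. In the DNAJA and DNAJB families (4 and 10 genes), which resemble the bacterial DnaJ most, 3 genes rose and 3 fell in RVO eyes. In control eyes 3 rose and 4 fell. These shares of both families together were near or below the background. It was 27.4% up and 24.6% down in RVO and 27.2% up and 25.2% down in control eyes. Dnajb1, the HSP40 that works with inducible HSP70, held 138, 119 and 133 CPM in RVO, 85.3, 97.2 and 90.4 in control and 50.9, 51.7 and 51.9 in untreated eyes. The 3 groups were apart, and Dnajb1 rose 2.51-fold in RVO (log2 1.33 ± 0.08, adjusted p = 9.99e-06) and 1.74-fold in control eyes (log2 0.80 ± 0.06, adjusted p = 5.28e-07). Dnajb2, a form enriched in neurons, showed the same order, with a rise of 1.14 ± 0.08 in RVO and of 0.73 ± 0.06 in control eyes (adjusted p = 2.44e-05 and 4.74e-07). The difference between RVO and control eyes was 0.52 ± 0.09 for Dnajb1 and 0.40 ± 0.08 for Dnajb2 (adjusted p = 0.0104 and 0.0126).

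The other cytosolic genes of these families behaved differently. Dnaja1, the main cytosolic DNAJA, held 44.3, 53.1 and 53.4 CPM in RVO, 57.8, 60.0 and 63.2 in control and 57.1, 57.8 and 58.7 in untreated eyes. It was not called in RVO eyes (log2 -0.21 ± 0.09, adjusted p = 0.0672), but without GC content and length trends its value was 0.36 with an adjusted p of 0.00722. Dnaja2 fell in RVO and control eyes (log2 -0.33 and -0.40), values that became 0.001 and -0.07 without these trends. The RVO call of Dnaja2 was also lost without RVO replicate 1 or any untreated replicate (adjusted p up to 0.0187). Dnajb4 fell in both (log2 -0.87 and -0.49, adjusted p = 0.000366 and 2.42e-05), but neither call held without GC content and length trends (log2 -0.38 and -0.09, adjusted p = 0.0147 and 0.244). Dnajb5 rose in control eyes (log2 0.36, adjusted p = 0.00167), a call lost without untreated replicate 1 or 2 (adjusted p up to 0.0161) and at 0.07 without GC content and length trends. Dnaja4, Dnajb3 and Dnajb6, the last a suppressor of protein aggregation, were not called in any comparison.

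Of the 25 DNAJC genes, which share only the J domain, none rose and 8 fell in RVO eyes, and none rose and 13 fell in control eyes (edgeR). The share that fell in control eyes was 52.0% against a background of 25.2%, the 8 in RVO eyes compare with 24.6% of all genes, and 27.4% and 27.2% of all genes rose. Scaled by library size alone, 7 were up and 3 down in RVO (all genes 36.4% and 16.7%) and 6 up and 8 down in control eyes (36.7% and 15.5%). After removal of GC content and length trends 2 were up and 8 down in RVO (all genes 23.7% and 20.1%). In control eyes 1 was then up and 9 down (18.0% and 19.6%). The 25 genes had medians of -0.21 and -0.29 on the log2 scale, against 0.008 and 0.013 for all genes tested.

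The largest falls were those of Dnajc28, Dnajc19 and Dnajc6. Dnajc28 held 21.7, 23.4 and 21.1 CPM in RVO, 29.7, 24.7 and 32.2 in control and 61.6, 56.6 and 53.4 in untreated eyes (log2 -1.38 ± 0.09 and -0.9998 ± 0.09, adjusted p = 1.26e-05 and 1.38e-06). Dnajc19, a subunit of the import motor at the mitochondrial inner membrane, held 13.2, 12.8 and 12.5 CPM in RVO, 15.1, 13.4 and 13.6 in control and 26.9, 26.5 and 25.0 in untreated eyes (log2 -1.04 ± 0.09 and -0.91 ± 0.09, adjusted p = 5.18e-05 and 1.69e-06). All laser-treated samples of both genes lay far below the untreated ones. Dnajc6, the neuronal auxilin that takes clathrin off synaptic vesicles, held 103, 132 and 101 CPM in RVO, 181, 158 and 173 in control and 218, 224 and 212 in untreated eyes (log2 -0.98 ± 0.11 and -0.37 ± 0.06, adjusted p = 0.000119 and 9.19e-05). Its 3 groups were apart, and RVO and control eyes differed by -0.61 ± 0.11 (adjusted p = 0.012).

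Dnajc5, the cysteine string protein of synaptic vesicles, lay between 424 and 556 CPM and was not called, and Dnajc13, an endosomal co-chaperone, fell by 0.32 and 0.35, values that became 0.12 and -0.06 without GC content and length trends. Dnajc27 fell in RVO eyes (log2 -0.56 ± 0.11, adjusted p = 0.00254) and was at 0.04 ± 0.06 in control eyes (adjusted p = 0.588), a difference of -0.61 ± 0.11 (adjusted p = 0.0123). Of the nuclear and ribosomal genes, Dnajc8 of the splicing machinery, the histone chaperone Dnajc9 and the ribosome biogenesis factor Dnajc21 fell in RVO and control eyes, by 0.29 and 0.41, 0.43 and 0.49, and 0.43 and 0.67 on the log2 scale. The RVO calls of Dnajc8, Dnajc9, Dnajc13 and Dnajc27 were lost without RVO replicate 3, untreated replicate 1 or untreated replicate 2, those of Dnajc13 and Dnajc27 also without untreated replicate 3 and that of Dnajc8 without RVO replicate 1, with adjusted p up to 0.0282. Without GC content and length trends Dnajc8 was not called in either group and Dnajc21 not in RVO eyes (log2 -0.09), and under scaling by library size the RVO calls of Dnajc8, Dnajc9, Dnajc13, Dnajc21 and Dnajc27 were lost (adjusted p between 0.0197 and 0.377). Dnajc2, the partner of Hspa14 at the ribosome, fell in control eyes (log2 -0.47, adjusted p = 0.000174), as did Dnajc4, Dnajc7 and Dnajc25 (log2 between -0.55 and -0.27). The calls of Dnajc2 and Dnajc25 were lost without GC content and length trends (adjusted p = 0.312 and 0.0103), and those of Dnajc4 and Dnajc7 under scaling by library size (0.038 and 0.133). Dnajc12, Dnajc14, Dnajc17, Dnajc18 and Dnajc24 were not called against untreated eyes.

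Grouped by place in the cell, 13 chaperones of cytosol and mitochondrial matrix were listed as a heat-inducible core. The list includes Hspa8 and Hsp90ab1, named above as constitutive forms. Of the 13, 8 rose, Hsp90ab1 among them, and none fell in RVO eyes. In control eyes 6 rose and 2 fell (Hspa8 and Hsp90aa1). Among all genes 27.4% rose and 24.6% fell in RVO and 27.2% rose and 25.2% fell in control eyes. Their median was 0.66 in RVO and 0.12 in control eyes, against 0.008 and 0.013 for all genes tested. Scaled by library size alone, 10 were up and 0 down in RVO eyes (all genes 36.4% and 16.7%). In control eyes this gave 8 up and 2 down (36.7% and 15.5%). After removal of GC content and length trends 9 were up and 0 down in RVO eyes (all genes 23.7% and 20.1%). Control eyes then had 5 up and 3 down (18.0% and 19.6%). This list was chosen with earlier results of the same samples known and gives no independent evidence of a direction. The 8 and the 6 risers both hold Hspb1, which had to differ because it passed the filter only through the group where it was high. They also hold Cryab, for which the part of lens RNA was not tested.

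Of the 10 members in the endoplasmic reticulum, 1 rose and 2 fell in RVO eyes, and none rose and 6 fell in control eyes. The shares in RVO eyes were below the background of 27.4% and 24.6%, and the 60.0% that fell in control eyes compare with 25.2%. Dnajb9, which is induced by unfolded proteins in the endoplasmic reticulum, held 70.4, 33.9 and 55.6 CPM in RVO, 25.5, 25.7 and 22.8 in control and 51.6, 50.2 and 42.3 in untreated eyes. It fell in control eyes (log2 -0.98 ± 0.09, adjusted p = 1.38e-06), while RVO and untreated eyes overlapped (0.14 ± 0.24, adjusted p = 0.605). RVO and control eyes did not overlap (1.11 ± 0.24, adjusted p = 0.0154), and RVO replicate 2 was the RVO sample nearest to control. Without it this difference was 1.34 (adjusted p = 1.46e-05), and Dnajb9 was above untreated eyes by 0.41 (adjusted p = 0.00362).

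Hsp90b1, the HSP90 of the endoplasmic reticulum, held 1016, 668 and 831 CPM in RVO, 530, 540 and 550 in control and 784, 736 and 670 in untreated eyes, and fell in control eyes (log2 -0.45 ± 0.06, adjusted p = 4.62e-05), a call lost without GC content and length trends (log2 -0.097, adjusted p = 0.133). Between RVO and untreated eyes Hsp90b1 was not called (log2 0.19), and the samples overlapped. Only without RVO replicate 2, in a fit that called 33.3% of all genes higher, was it called higher (log2 0.35, adjusted p = 0.0027). Dnajc3, an inhibitor of the kinase PERK, and Dnajc1 fell in control eyes by 0.29 and 0.31 (adjusted p = 0.00084 and 0.00318), the first at 0.06 without GC content and length trends and the second with an adjusted p of 0.0122 without control replicate 2 and 0.018 without those trends. Dnajb11, a partner of the main HSP70 of this compartment, rose in RVO eyes by 0.51 ± 0.12 (adjusted p = 0.00665), a call lost without RVO replicate 1, RVO replicate 3 or any untreated replicate (adjusted p up to 0.0342) and without GC content and length trends (0.0249). Dnajb14, a membrane-bound form, fell instead: it held 69.5, 92.7 and 73.5 CPM in RVO, 99.4, 99.7 and 95.6 in control and 172, 177 and 162 in untreated eyes (log2 -1.13 ± 0.11 and -0.81 ± 0.05, adjusted p = 7.38e-05 and 1.63e-07). Dnajb12, its relative, Dnajc10 and Dnajc16 were not called against untreated eyes. Scaled by library size alone, 5 of the 10 were up and 2 down in RVO (all genes 36.4% and 16.7%) and 1 up and 4 down in control eyes (36.7% and 15.5%). Without GC content and length trends 2 were up and 1 down in RVO (all genes 23.7% and 20.1%). In control eyes 0 were then up and 3 down (18.0% and 19.6%), with the control median at -0.12 in place of -0.30.

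Of the 9 mitochondrial members, Hspa9 and Hspe1 rose and Dnajc19 and Dnajc28 fell in RVO eyes, and Hspe1 rose and Dnajc19 and Dnajc28 fell in control eyes, shares of 22.2% up and down and of 11.1% up and 22.2% down that were below the background. Hspd1, Dnaja3, Dnajc11, Dnajc15 and Dnajc30 were not called against untreated eyes. Between RVO and control eyes, 6 of 10 endoplasmic reticulum members and 4 of 9 mitochondrial members were higher at an adjusted p under 0.05, and 0 and 1 lower, against 17.5% of all genes higher and 17.1% lower.

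**Figure D4:**
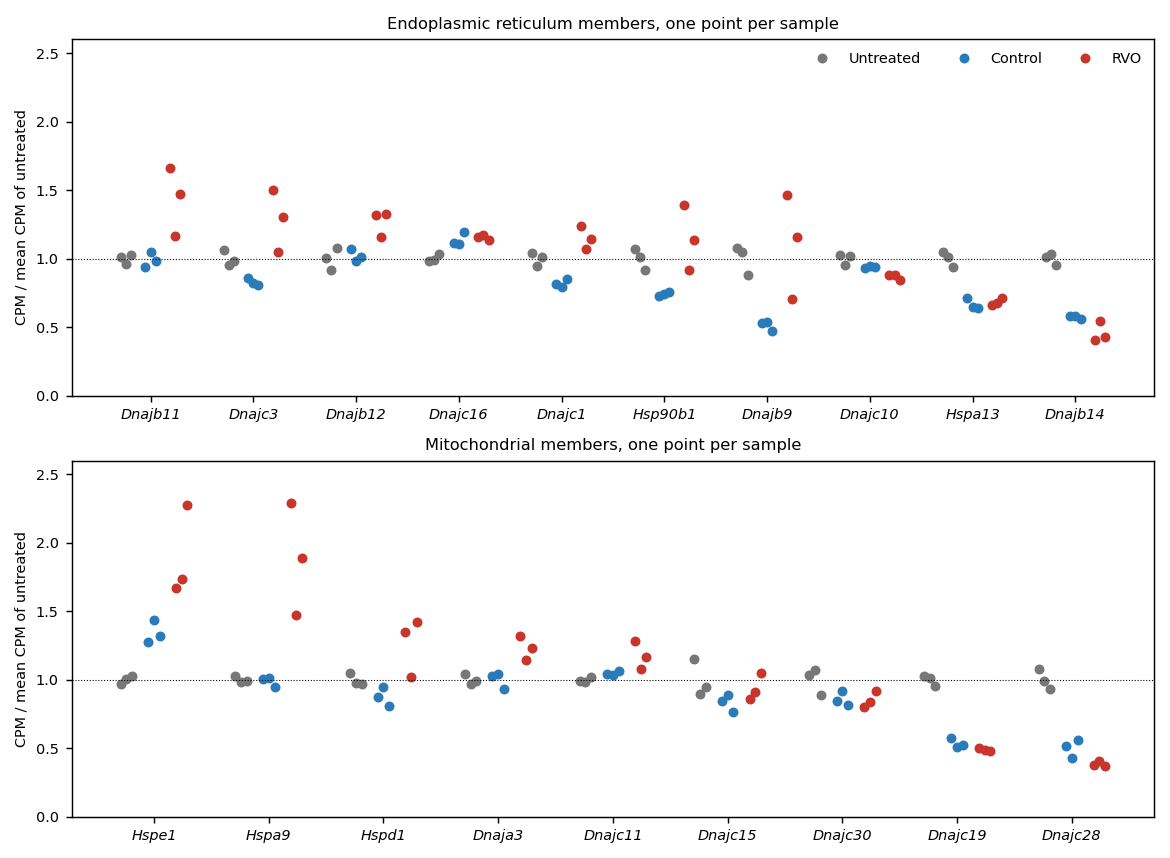
CPM of each sample divided by the mean of the untreated samples (y axis) for the members in the endoplasmic reticulum (top) and in mitochondria (bottom), grey for untreated, blue for control and red for RVO, replicates 1, 2 and 3 from left to right. Hspa9 lies near 1 in control eyes and above all others in RVO eyes, Dnajb9, Hsp90b1, Dnajc1 and Dnajc3 are lowest in control eyes, and Dnajb14, Hspa13, Dnajc19 and Dnajc28 are low in both.

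The partners of these chaperones were looked at in 4 lists of HSP90 cofactors, HSP70 exchange factors and co-chaperones, subunits of the TRiC chaperonin and prefoldin, and other heat shock factors and binding proteins. Of 48 genes tested, 14 rose and 8 fell in RVO eyes, and of 47 tested, 8 rose and 13 fell in control eyes. With 29.2% up and 16.7% down in RVO and 17.0% up and 27.7% down in control eyes, these shares were near or below those of all genes (27.4% and 24.6%, 27.2% and 25.2%). In RVO eyes 9 rose without RVO replicate 3 or untreated replicate 2 (all genes 22.3% and 19.2%). Without RVO replicate 3, untreated replicate 1 or untreated replicate 2, 5 fell (all genes 16.9%, 16.6% and 15.8%). Hspbp1, an exchange factor of HSP70, held 58.3, 48.0 and 56.6 CPM in RVO, 44.1, 51.2 and 45.1 in control and 20.6, 21.3 and 26.0 in untreated eyes (log2 1.25 ± 0.12 and 1.03 ± 0.10, adjusted p = 7.25e-05 and 2.41e-06). Hyou1, the large HSP70 of the endoplasmic reticulum, held 286, 171 and 214 CPM in RVO, 136, 137 and 141 in control and 100, 103 and 104 in untreated eyes (log2 1.11 ± 0.17 and 0.41 ± 0.05, adjusted p = 0.000604 and 1.42e-05). Unlike for Dnajb9 and Hsp90b1, all control samples of Hyou1 were above all untreated ones.

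Fkbp8, a membrane-bound HSP90 cofactor, rose alike in RVO and control eyes (log2 1.02 ± 0.10 and 1.03 ± 0.09). Hsbp1l1, related to a heat shock factor binding protein, fell in both (log2 -0.84 and -0.89). Between RVO and control eyes, Tcp1 of the TRiC chaperonin and the HSP70 co-chaperone St13 were higher (log2 0.47 ± 0.07 and 0.42 ± 0.07, adjusted p = 0.00944 and 0.00989), and none of the 48 partners was lower (4.17% higher, background 2.7%). St13 also fell in control against untreated eyes (log2 -0.35, adjusted p = 0.00043). Without RVO replicate 2, 18 partners were higher (all genes 17.1%). Without any 1 of the other RVO or control replicates none was, in fits that called at most 0.169% of all genes higher.

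Over all 66 members, the summed level was between 7966 and 8284 CPM in RVO, between 6477 and 6930 in control and between 6987 and 7482 in untreated eyes. Without Cryab the sums were 7994, 7003 and 7614 CPM in RVO, 6369, 6405 and 6324 in control and 7436, 7260 and 6948 in untreated eyes. Scaled by library size alone, the sums without Cryab were 8550, 7264 and 8165 CPM in RVO, 6511, 6676 and 6392 in control and 6716, 6706 and 6499.9 in untreated eyes. Control eyes had the lowest sums under TMM, whereas by library size control and untreated eyes overlapped.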

How the data were processed

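Reads were mapped by the authors with STAR 2.5.2b against the mouse genome and Gencode vM11 genes, and the raw counts per gene made with featureCounts (Subread 1.5.1) were deposited without normalization. The strand setting and the treatment of reads matching several genes are not given in the sources used here. All sample columns were used (0 left out), and 92 spike-in rows without counts were removed.

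Each pair of groups was fitted on its own with edgeR 4.0.16 in R 4.3.3 (filterByExpr, TMM, quasi-likelihood test), with Benjamini-Hochberg adjustment over all genes tested and a threshold of 0.01. The script was tested on simulated data. DESeq2 1.42.0, other scalings, no filter, a fit of all 9 samples and fits without each replicate were alternatives. Per-sample CPM used TMM factors over 9 samples. Values in every sample are given for the heat-inducible core, Hsf1, Hsf2 and up to 5 rising and 5 falling members of largest change in each comparison, if called and without overlap, and for other members that a result turned on (Hspa9, Hsp90b1 and Hspa12b, chosen after their values were seen). Of the partners, the 3 with the largest change per comparison are named. The members and lists were chosen with earlier results of these data known. Chromosome positions come from GENCODE vM21 (GRCm38). Protein sequences were not used here.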

Additional observations from a re-analysis of the deposited data

How the results depend on the processing

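With 3 pools per group an exact permutation test of a single value cannot go below 0.1, so all calls rest on models fitted across genes. At an adjusted p under 0.05, 22 members were up and 7 down between RVO and control eyes, with 15 partners up and 1 down (all genes 17.5% and 17.1%). Against untreated eyes 23 members were up and 22 down in RVO, and 13 up and 30 down in control eyes. The share of all genes at 0.05 was not taken for these comparisons, so their counts are a description only.

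Of the calls of members at 0.01, 10 of 14 rises and 5 of 15 falls in RVO eyes held under every alternative tried. In control eyes 5 of 9 rises and 9 of 27 falls held, and 0 of 1 between RVO and control eyes. The 10, the 14 and the 9 include Hspb1, and the 14 also Hspb2. Both passed the filter on low counts only through the group where they were high. The share of all called genes that held was not taken, so these counts are a description only. Scaling by library size alone gave 26 members up and 9 down and 26 partners up and 4 down in RVO eyes (all genes 36.4% and 16.7%). In control eyes it gave 19 members up and 20 partners up and 8 partners down (all genes 36.7% and 15.5%). Between RVO and control eyes 4 members were up (all genes 4.09%). Between RVO and control eyes, DESeq2 called 16 members up and 4 down and 10 partners up (all genes 11.0% up and 12.7% down). No filter on low counts gave 15 and 4 members and 8 partners (all genes 5.28% and 5.85%). A fit of all 9 samples gave 17 and 4 members and 11 partners (all genes 10.7% and 11.8%). With DESeq2 size factors 0 partners were up (all genes 1.92%). In control against untreated eyes, the fit of all 9 samples called 5 partners up (all genes 19.9%). Removal of GC content and length trends, chosen after seeing the data, left 17 members down in control eyes (all genes 19.6%). It left 3 up between RVO and control eyes (all genes 3.22%). Leaving out RVO replicate 2 and control replicate 1 together, also chosen after seeing the data, gave 19 members up, 8 down and 10 partners up (all genes 12.5% up and 16.0% down). The cause of these differences was not tested.

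When 1 replicate was left out, the members up numbered 10 to 22 in RVO eyes, and between RVO and control eyes 0 to 21 up and 0 to 11 down. Partners numbered 9 to 19 up and 5 to 8 down in RVO eyes, and 0 to 18 up and 0 to 2 down between RVO and control eyes. Of all genes, these fits called 19.2% to 33.3% up and 15.8% to 31.0% down in RVO eyes. Between RVO and control eyes they called 0.0% to 17.1% up and 0.0% to 19.3% down.

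Same-numbered RVO and control samples did not deviate together (r = -0.12, -0.14 and 0.07), and not every sample correlated best with its own number. Whether same-numbered pools hold fellow eyes of the same mice is not stated, and 3 such correlations cannot decide it. With a replicate block, 14 members were up and 12 down in RVO eyes (all genes 26.2% and 24.0%). In control eyes 9 were up and 27 down (all genes 27.2% and 25.2%). Between RVO and control eyes 0 members and 0 partners were up (all genes 0.0%).

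Some signs changed, and before the change Hsf2 was at -0.93 and Hspa1a at 0.61 in RVO eyes. In RVO against untreated eyes, Hspa8 turned to 0.20 by library size, 0.044 without filter and 0.15 without GC content and length trends, and lay between -0.071 and 0.092 when 1 replicate was left out. Hsp90aa1 turned to 0.035 by library size. Without GC content and length trends Hspa1a turned to -0.013, Hsp90aa1 to 0.12, Dnaja1 to 0.36 and Hsf2 to 0.026. In control eyes, Hspa1a turned to -0.53 without these trends, where it was called lower, and lay between -0.0063 and 0.13 when 1 replicate was left out. Hsph1 turned to 0.15 by library size, 0.0065 without filter and 0.12 without trends, and lay between -0.070 and 0.015 when 1 replicate was left out. Without trends Hsp90ab1 turned to -0.0089 and Hsf1 to -0.095 in control eyes, and Hsf2 between RVO and control eyes to 0.038.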
